A study of Rattus norvegicus with 6 samples.

Results

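The Sec61 translocon is the channel of the endoplasmic reticulum (ER) membrane through which nascent secretory proteins, preproinsulin among them, pass into the ER lumen. The 10 genes described here encode that channel and the proteins bound to it, and were taken by name out of 14217 genes with a single symbol on the array. Sec61a1 encodes the pore, Sec61b and Sec61g its small subunits, Sec62 and Sec63 the partners that assist the entry of completed and slowly gated precursors, Ssr1 to Ssr4 the alpha, beta, gamma and delta subunits of the translocon-associated protein (TRAP) complex, and Tram1 the translocating chain-associated membrane protein. A gene was represented by the probe set with the highest mean over the 6 arrays, and its other probe sets served as a check. Beta cells of male Wistar rats, 10 weeks of age, were sorted by flow cytometry (FACS-purified). The rats were either fed ad libitum (3 isolates) or fasted for 24 h (3 isolates). Cells were frozen directly after isolation. Each isolate came from a separate pool of 5 rats and was hybridized on 1 array, and the fed isolates are the controls. The labels name no genetic change or drug for either group.

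In most cells the ribosome docks on Sec61 while it is still translating, so that the signal peptide opens the channel and the chain enters as it is made. TRAP sits beside the channel and helps signal peptides that open it poorly, among which that of preproinsulin is known, and the TRAP alpha gene is required for normal insulin synthesis. Beta cells devote much of their translation to a single secretory precursor and hold a large rough ER.

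After 24 h of fasting the transcripts of all 10 genes measured lower than in beta cells of fed rats, as did 66.3% of all probe sets, and on each of the 10 probe sets the 3 fasted arrays lay below the 3 fed arrays. On the brightest probe sets Sec61a1 showed the largest difference, with 51.7% of the fed intensity left, followed by the TRAP subunits Ssr2 with 58.5% and Ssr4 with 60.0%. Sec63 and Sec62 showed the smallest differences, with 85.5% and 82.7% left. At the thresholds of the study, a change of 1.5-fold or more at an unadjusted p under 0.05, here applied to limma's moderated test on log2 intensities, 4 genes fell (Sec61a1, Sec61g, Ssr2 and Ssr4), 0 rose and 6 did not pass. Of all 31042 probe sets, 8.43% were lower by this rule and 2.37% higher. Of the 1514 genes at least as bright as the dimmest of the 10, 7.73% were lower by it. The study, with dChip, reported a far smaller share of transcripts changed at these thresholds, nearly all of them lower. Without regard to fold, 9 of the 10 genes were lower at an unadjusted p under 0.05, against 11.6% of all probe sets and 27% of the bright genes. Complete separation of the groups, with the fasted arrays below, was seen for 17.6% of all probe sets and 33.3% of the bright genes. None of the 10 passed an adjusted p under 0.05 in limma (0.155 to 0.430, Benjamini-Hochberg over all probe sets), nor did any other probe set, while 14.9% of all probe sets had an unadjusted p under 0.05 in either direction. With 3 arrays against 3, a two-sided exact permutation test cannot give less than p = 0.1, which each of the 10 genes reached. The study chose its panel of marker genes for abundance in beta cells of rat, mouse and human. Among others, the panel holds the Sec61a1, Sec61b and Sec63 probe sets used here. From the panel the study listed the markers that fell on these arrays, Ssr2, Ssr4 and the Sec61a1 probe set among them. These are therefore not independent evidence of the direction. The panel's entry for this Sec61a1 probe set carries the symbol of Sec61b with the description of Sec61 alpha 1. The platform annotation used here gives Sec61a1. The gene's next probe set is also in the panel, under the same symbol and description.

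**Figure D1:**
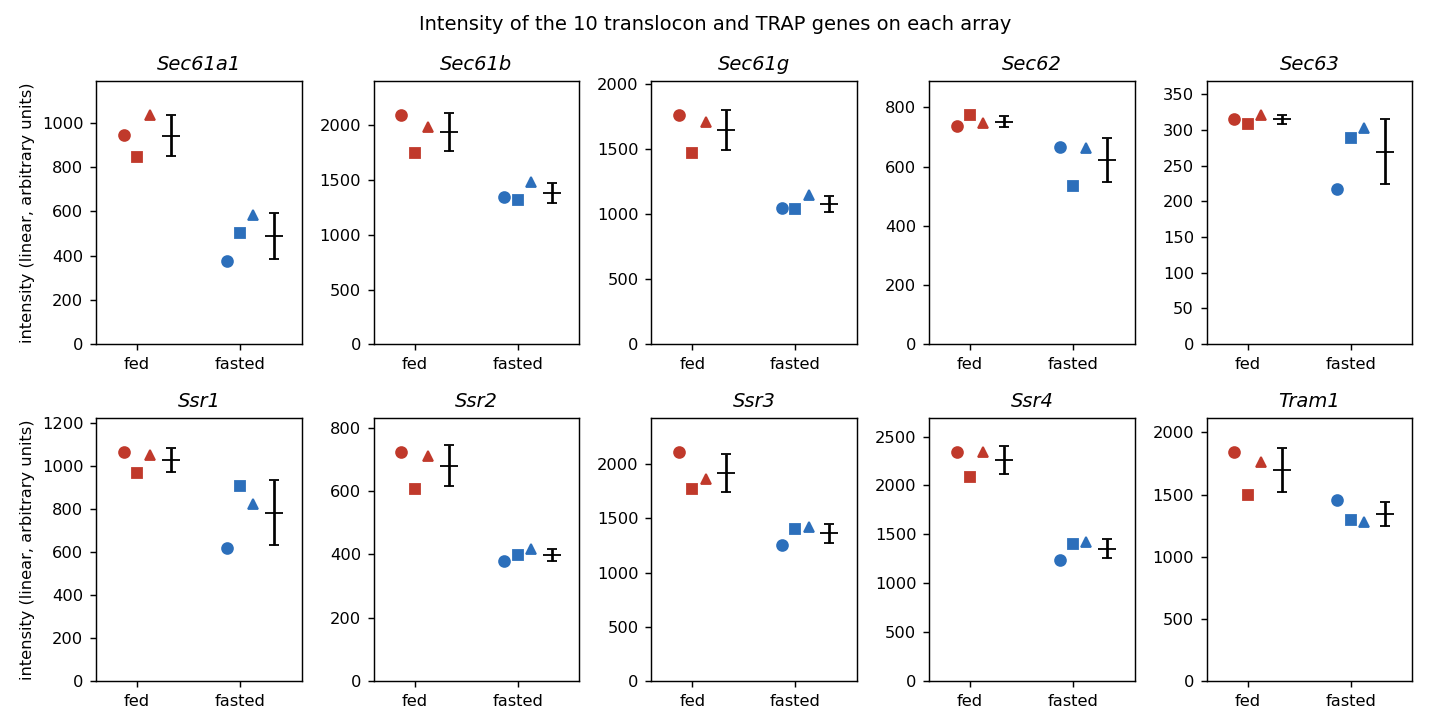
Intensity (linear, arbitrary units, axes from 0) of the 10 genes on each array; red symbols are fed and blue symbols fasted isolates, circles, squares and triangles are replicates 1, 2 and 3, and the bar is the mean with its SD (n = 3). The fasted arrays lie below the fed arrays in every panel. As a share of the fed mean, the fasted mean is lowest for Sec61a1 (487 against 942) and highest for Sec63 and Sec62.

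The deposited values carry a shift between the arrays that touches every value below. Median intensity over all probe sets was 20.2 to 21.8 on the fed arrays and 17.1, 17.8 and 21.0 on fasted arrays 1, 2 and 3, and the median log2 change over all probe sets was -0.20. Quantile normalization brought it to -0.02, and division of each array by its 75th percentile to 0.01. The highest intensity on any array was 7629, and values near this top may not follow the amount of mRNA. Beta cell markers were bright in both groups, with Ins2 at 5784 ± 93.5 in fed and 5898 ± 139 in fasted isolates (SD, n = 3 each). Ins1, Ins2 and Iapp, with means over 5000, lay near the top of the range, so that their like values do not measure the share of beta cells. The other 5 of 8 beta cell markers summed to 5114 to 5954 on fed and 5019 to 5217 on fasted arrays. Of the beta cell markers Gad2 was higher after fasting and the median log2 change was -0.03. Messenger RNA of acinar cells, which are also rich in ER, was present in both groups. Of 12 acinar markers, 8 also had means over 5000, and these cannot show whether acinar RNA differed between the groups. The other 4 summed to 6411 to 8295 on fed arrays and to 5138, 7799.7 and 7622 on fasted arrays 1, 2 and 3. Over all 12 the log2 change was below 0 for 9 (median -0.07), and 1, the acinar transcription factor Ptf1a, was lower at both thresholds (43.5 ± 12.9 in fed and 13.2 ± 3.27 in fasted isolates, SD, n = 3 each). Of the 4 duct markers Krt19 was higher after fasting (53.0 ± 5.71 against 85.7 ± 4.72, SD, n = 3 each). Immune cell markers were dim, with a sum over 7 genes of 66.0 to 161 on fed and 75.6 to 79.9 on fasted arrays, and no marker of immune, alpha, delta, PP, endothelial or stellate cells passed both thresholds. The alpha cell marker sum was 7406, 11074 and 6250 on fed arrays 1, 2 and 3 and 7336 to 8542 on fasted arrays. Ppy, the PP marker, read 2567, 4270 and 2057 on these fed arrays and 2997 to 3536 on fasted arrays. Gcg had means over 5000 in both groups, near the top of the range. Its value on fed array 2 was the 7629 named above. The part of these markers in the differences reported here was not tested. In bulk RNA, fewer cells of a type and less RNA per cell cannot be told apart.

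Sec61a1, which forms the pore, showed the largest difference of the 10 genes on the brightest probe sets. Its brightest probe set measured 947, 846 and 1034 on the fed arrays and 377, 504 and 582 on the fasted arrays. All fasted values lay below all fed values, fasted array 1 lowest. The log2 ratio of fasted over fed was -0.97 (95% confidence interval -1.39 to -0.55, adjusted p = 0.176 from limma). The next probe set of the gene measured 538, 574 and 574 in fed and 202, 328 and 416 in fasted isolates, a log2 change of -0.89, and also passed both thresholds. The dimmest Sec61a1 probe set lay between 1 and 3.77 on all arrays, close to the floor of 3.27 set for the fit, and carried no usable difference. The mean of all 3 probe sets, this one included, gave a log2 change of -0.60.

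Sec61b encodes the beta subunit, a small tail-anchored protein at the side of the channel. It measured 2092, 1747 and 1982 in fed and 1342, 1316 and 1483 in fasted isolates. The groups were separate, and the log2 change of -0.49 (95% confidence interval -0.72 to -0.26, adjusted p = 0.176 from limma) stayed short of 1.5-fold. Sec61g, the gamma subunit that clamps the pore, measured 1761, 1471 and 1708 in fed and 1046, 1039 and 1150.2 in fasted isolates. Its log2 change was -0.61, with an interval of -0.84 to -0.38 (adjusted p = 0.164 from limma), which lay just past 1.5-fold. Without fasted replicate 2, fed replicate 1 or fed replicate 3 Sec61g missed that fold (log2 change -0.58, -0.56 and -0.58), at an unadjusted p of 0.00348 to 0.00413 from limma.

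Within an array the ratio of one gene to another does not depend on a linear scaling of the array. The log2 ratio of Sec61a1 to Sec61b, set to a mean of 0 over the fed arrays, was -0.10, 0.00 and 0.10 on them and -0.79, -0.34 and -0.31 on the fasted arrays. Sec61a1 was thus lower relative to Sec61b on every fasted array, by 0.48 on average on the log2 scale, and relative to Sec61g by 0.36. Between Sec61b and Sec61g the ratio moved by 0.12, with fasted values of 0.10 to 0.13 against -0.02 to 0.01 in fed isolates. These pairs were chosen after the values had been seen and were not tested.

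**Figure D2:**
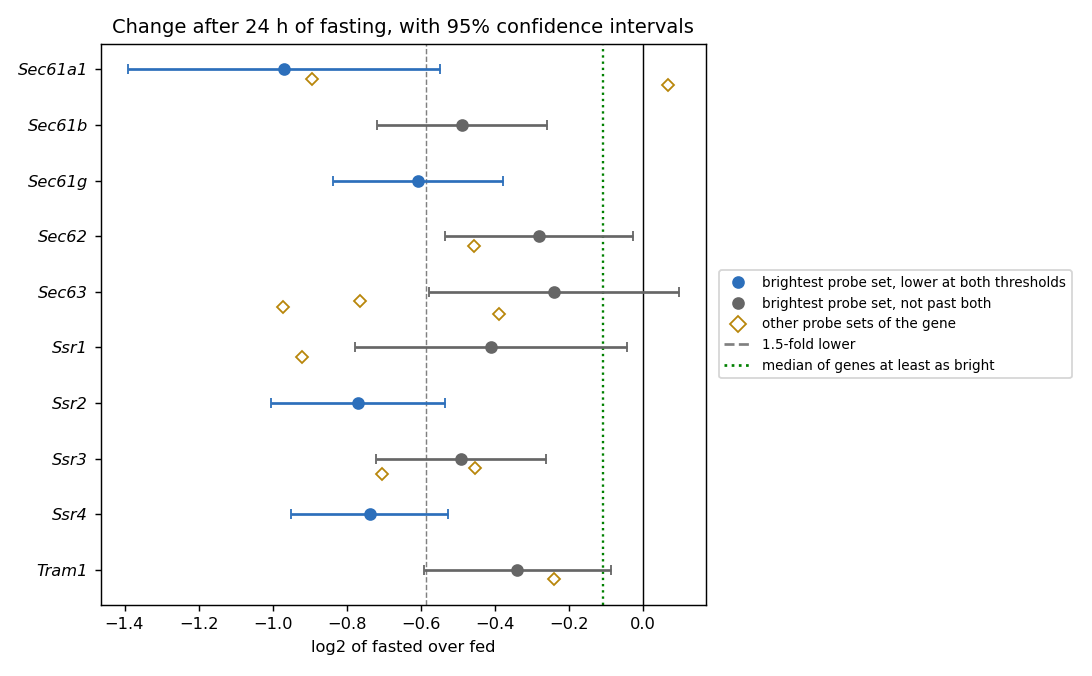
Log2 ratio of fasted over fed for each gene with its 95% confidence interval from limma (filled circles, brightest probe set) and for the other probe sets of the gene (open diamonds); dashed and dotted lines mark 1.5-fold and the median of the 1514 genes at least as bright (-0.11). Blue circles passed both thresholds, and the interval of Sec63 (-0.58 to 0.10) includes 0.

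All 4 subunits of TRAP measured lower, and the size of the difference varied between them. Ssr2, the beta subunit, measured 724, 607 and 712 in fed and 379, 399.6 and 417 in fasted isolates. The fasted values lay within a narrow range well below the fed ones, at a log2 change of -0.77 (adjusted p = 0.155 from limma). Ssr4, the delta subunit, measured 2341, 2091 and 2338 in fed and 1239.9, 1404 and 1416 in fasted isolates. Its log2 change of -0.74 (95% confidence interval -0.95 to -0.53) had the same adjusted p. The ratio of Ssr4 to Ssr2 overlapped between the groups, with a mean difference of 0.03 on the log2 scale.

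Ssr3, the gamma subunit, measured 2112, 1773 and 1863 in fed and 1258, 1406 and 1420.4 in fasted isolates. The groups did not overlap, and the log2 change of -0.49 (95% confidence interval -0.72 to -0.26, adjusted p = 0.176 from limma) was under 1.5-fold. Its other probe sets gave -0.45 and -0.71, of which the dimmer one overlapped between the groups. Ssr1, the alpha subunit, measured 1065, 966 and 1052 in fed and 617, 909 and 824 in fasted isolates. Fasted arrays 2 and 3 lay close under the fed range and array 1 far below it, so that the log2 change of -0.41 had a wide interval (-0.78 to -0.04, adjusted p = 0.305 from limma). Without fasted replicate 1 it was -0.25. The dimmer Ssr1 probe set measured 426, 287 and 364 in fed and 110, 240.0 and 250.2 in fasted isolates, a log2 change of -0.92, and passed both thresholds. Ssr1 missed an unadjusted p of 0.05 without fasted replicate 3 or without any of the fed replicates (0.0960 at most, limma). With the mean of both probe sets Ssr1 also passed them (log2 change -0.66, unadjusted p = 0.0301 from limma).

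Sec62 and Sec63, the membrane proteins that work with the lumenal chaperone BiP on precursors that the ribosome does not push through, differed least on the brightest probe sets. Sec62 measured 738, 773 and 746 in fed and 666, 536 and 664 in fasted isolates. Its log2 change was -0.28 (95% confidence interval -0.53 to -0.03, unadjusted p = 0.0349 and adjusted p = 0.308 from limma), and the other probe set gave -0.46. Without fasted replicate 2, or without any of the fed replicates, Sec62 missed an unadjusted p of 0.05 in limma (0.0908 at most). Sec63, which carries the J-domain that recruits BiP, measured 316, 308 and 320.4 in fed and 217, 288 and 302 in fasted isolates. The fasted arrays lay below the fed ones, 2 of them by little, and the log2 change of -0.24 did not pass (95% confidence interval -0.58 to 0.10, unadjusted p = 0.132 from limma). Without fasted replicate 1 it was -0.09. Of the dimmer Sec63 probe sets 1 passed both thresholds (log2 change -0.76), and the others gave -0.97 and -0.39 with wider spread. Averaged over its 4 probe sets Sec63 measured -0.59 on the log2 scale (limma, unadjusted p = 0.112), past that of Sec61b (-0.49) and Ssr3 (-0.55), and Tram1 (-0.29) and Sec62 (-0.37) had the smallest. Tram1, which contacts signal sequences early during insertion, measured 1842, 1500.3 and 1758 in fed and 1454, 1293 and 1276 in fasted isolates. Its log2 change was -0.34 (95% confidence interval -0.59 to -0.09, adjusted p = 0.271 from limma). The highest fasted value of Tram1 lay close to its lowest fed value, and the dimmer probe set overlapped between the groups (-0.24). Tram1 missed an unadjusted p of 0.05 without fasted replicate 2 or 3 or without fed replicate 1 or 3 (0.0642 at most, limma).

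Set against Sec62 and Sec63 on the same array, the channel was lower by 0.43 on the log2 scale in fasted than in fed isolates (-0.48, -0.40 and -0.41 against 0.09, -0.16 and 0.07, fed mean set to 0). TRAP was lower than these partners by 0.34, with fasted values of -0.41, -0.21 and -0.41 and no overlap with the fed arrays. Between the channel and TRAP the ratio overlapped between the groups (mean difference -0.09). This order held for the brightest probe sets and not for the mean of all probe sets of each gene, an alternative added after the values had been seen. With that mean the channel lay 0.09 and TRAP 0.20 below Sec62 and Sec63, and both overlapped between the groups (channel at 0.17, -0.13 and -0.29 on the fasted arrays against -0.02, -0.12 and 0.14 on the fed arrays). The mean of the channel included the Sec61a1 probe set close to the floor, which carried no usable difference and drew the mean of Sec61a1 toward no change. No test was run on this order, which was seen in the data first.

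**Figure D3:**
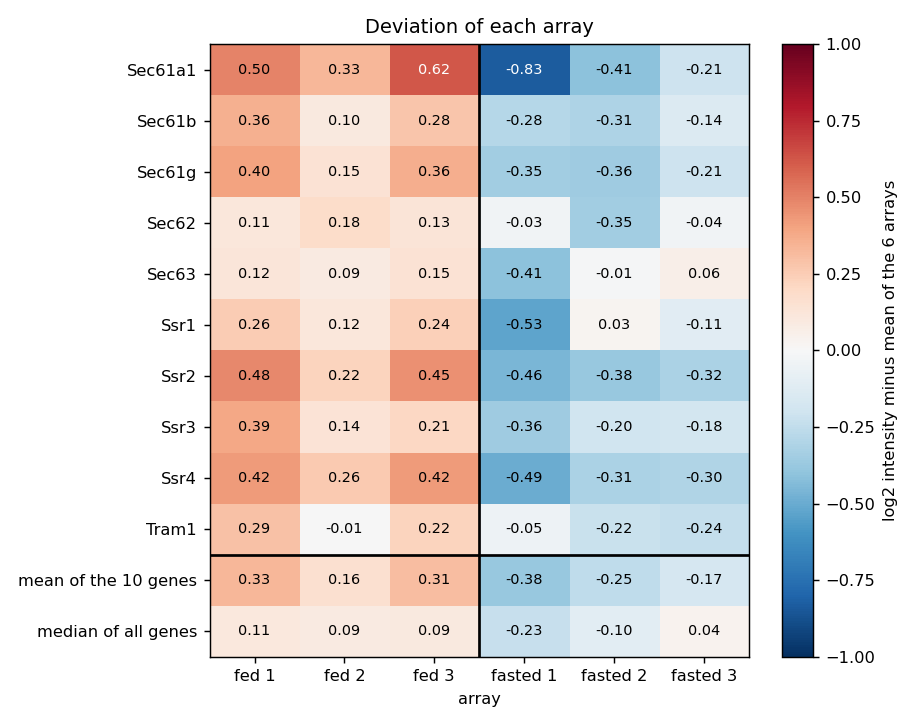
Log2 intensity of each gene on each array, relative to the mean of the 6 arrays (red above, blue below), with the mean of the 10 genes and the median of all genes in the bottom rows. The mean of the 10 genes lies at 0.33, 0.16 and 0.31 on the fed arrays and at -0.38, -0.25 and -0.17 on the fasted arrays, and the median of all genes at 0.09 to 0.11 and at -0.23, -0.10 and 0.04.

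The isolates ranked alike for many of the 10 genes, and how many of all genes ranked so was not counted. Fed replicate 2 was the lowest fed array for 9 of the 10 genes, and fasted replicate 3 was the highest fasted array for 7. The alpha cell marker sum and Ppy were highest on fed replicate 2, and a link was not tested. Fasted replicate 1 was the lowest fasted array for 6, Sec61a1, Sec63 and the 4 TRAP subunits. Fasted replicate 2 was the lowest for 3 and fasted replicate 3 for 1. After subtraction of the group means, 36 of the 45 pairs of genes correlated above 0 over the 6 arrays (median r = 0.57, range -0.72 to 0.99), which is given as a description, since the genes share the same arrays. On fasted array 3 the median of all genes stood at 0.04 relative to the mean of the arrays and the mean of the 10 genes at -0.17. Without fasted replicate 1 the median log2 change of the 10 genes was -0.45, and without fasted replicate 3 it was -0.53.

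The size of the difference depended on how the arrays were scaled. The median log2 change of the 10 genes was -0.49 on the deposited values, -0.36 with quantile normalization and -0.25 with the arrays set to one 75th percentile. The median over the 1514 genes at least as bright was -0.11, 0.01 and 0.13 under the same settings. The 10 genes lay 0.38 below them on the deposited values and 0.37 with quantile normalization, and division by a percentile cannot change this distance. On the deposited values and with quantile normalization all 10 lay below the median of the bright genes. At the strongest of these scalings, to the 75th percentile, Sec61a1 alone stayed past both thresholds (log2 change -0.72). Of all 31042 probe sets, 1326 were lower at both thresholds under this scaling. Ssr2 (-0.53), Ssr4 (-0.49) and Sec61g (-0.36) kept an unadjusted p under 0.05 from limma (0.00283, 0.00346 and 0.0202), and Sec63 turned to 0.00. After that scaling 4 of the 10 were lower at an unadjusted p under 0.05, against 8.06% of the bright genes, and after quantile normalization 6 of 10, against 16.6%. Among the bright genes on the deposited values, 1.25% had a more negative log2 change than Sec61a1, 2.91% than Ssr2, 3.63% than Ssr4 and 6.80% than Sec61g. For Sec62 and Sec63 the shares were 27.4% and 32.2%.

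**Figure D4:**
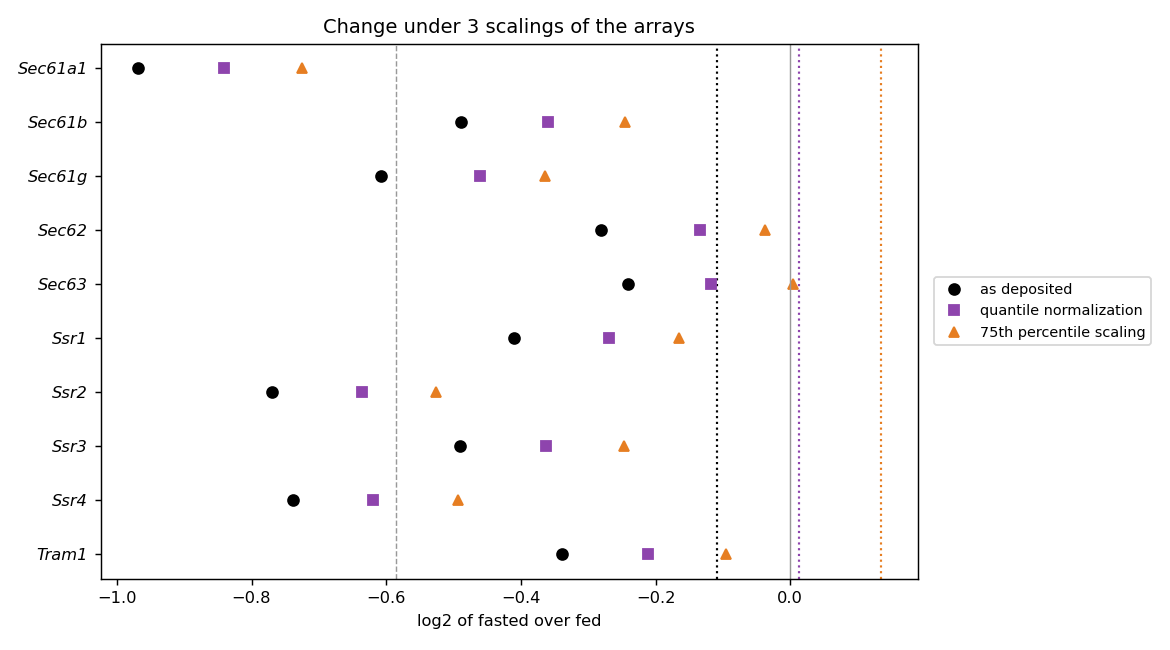
Log2 ratio of fasted to fed intensity of the 10 genes as deposited (circles), with quantile normalization (squares) and with scaling to the 75th percentile (triangles); dotted lines in the same colours are the medians of the 1514 genes at least as bright (-0.11, 0.01 and 0.13) and the dashed line is 1.5-fold. All points lie further right under either scaling, as do the medians, and every gene lies to the left of the median of its own setting.

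Beside the members, 61 further genes of protein entry into the ER were measured. They encode proteins that bring a chain to the channel or process it, other insertion routes, partners of the channel, and paralogs. Of the 61, 22 were lower at both thresholds (8.43% of all probe sets and 7.73% of the bright genes were) and 0 higher. The count was 11 with quantile normalization and 7 when arrays were set to one 75th percentile. Of all 31042 probe sets, 1495 and 1326 were lower at both thresholds under these settings. Together they had a median log2 change of -0.49, and 37 of them were lower at an unadjusted p under 0.05 in limma, against 11.6% of all probe sets and 27% of the bright genes. Of 8 genes of the signal recognition particle and its receptor, 4 were lower (median -0.59), with the receptor subunit Srpra at -0.75 and the Alu-domain protein Srp9 at -0.60. The other 2 were Srprb (-0.70) and Srp54a (-0.64), of the receptor and of the signal-binding subunit. Of 12 genes of the oligosaccharyltransferase, which glycosylates the entering chain, 8 were lower (median -0.66), Dad1 (-0.80) and Ddost (-0.82) with the largest test statistics. Magt1 (-1.12), Stt3a (-0.78), Ostc (-0.77), Tmem258 (-0.70), Krtcap2 (-0.62) and Rpn2 (-0.60) passed as well, while Tusc3, which takes the place of Magt1 in the complex, had a log2 change of 0.09. Stt3a overlapped between the groups and passed narrowly (unadjusted p = 0.0487 from limma). Magt1 measured 363, 399.98 and 316 in fed and 87.6, 255 and 201 in fasted isolates, fasted array 1 far below the others. The log2 change of Magt1 therefore had a wide confidence interval (-2.06 to -0.17). A difference between Magt1 and Tusc3 was not tested. Of the 5 genes of the signal peptidase complex, which cuts off the signal peptide, the catalytic subunit Sec11c was lower (-0.69), and Spcs1 (-0.38), with the next largest test statistic, did not reach 1.5-fold. These sublists hold genes from the study's list of markers that fell on these arrays, Srpra, Srp9, Dad1 and Ddost among them.

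Other genes of the list serve the insertion of other kinds of membrane proteins. Of the 7 genes of the multipass translocon, a set of proteins that joins Sec61 when proteins with many membrane spans are made, Nomo1 was lower at both thresholds (394 ± 75.4 in fed and 193 ± 4.0 in fasted isolates, SD, n = 3 each), and Wdr83os, with a log2 change of -0.49, was not. Of 10 genes of the ER membrane complex, an insertase that works apart from Sec61, Emc8 was lower (-0.97, on a dim probe set at 48.6 ± 6.18 and 26.3 ± 11.3, SD, n = 3 each) and the median was -0.22, close to that of all probe sets. Emc7, with the largest test statistic there, measured 562 ± 15.0 and 483 ± 8.96 (SD, n = 3 each). Of 8 genes of tail anchor insertion and the SND route, Tmem208 (-0.85) and Bag6 (-0.80) were lower. The median was -0.48 for this sublist and -0.35 for the multipass translocon. A difference between these sublists was not tested. Of 8 partners on the lumenal and the ribosome side, 5 were lower, the chaperone Hyou1 (-1.17), the ribosome-binding proteins Rrbp1 (-0.85) and Lrrc59 (-0.71), the sheet-forming protein Ckap4 (-1.40) and the protease Zmpste24 (-0.62), which clears clogged channels. The Ckap4 probe set was dim, at 57.7 ± 10.3 in fed and 22.7 ± 7.90 in fasted isolates (SD, n = 3 each). BiP (Hspa5), the lumenal motor of Sec63, measured 4648 ± 412 and 3766 ± 300 (SD, n = 3 each), a log2 change of -0.30, and did not reach 1.5-fold. Its fed arrays read 5110, 4319 and 4515, the first of them over 5000. Values this near the top of the range may not follow the amount of mRNA.

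**Figure D5:**
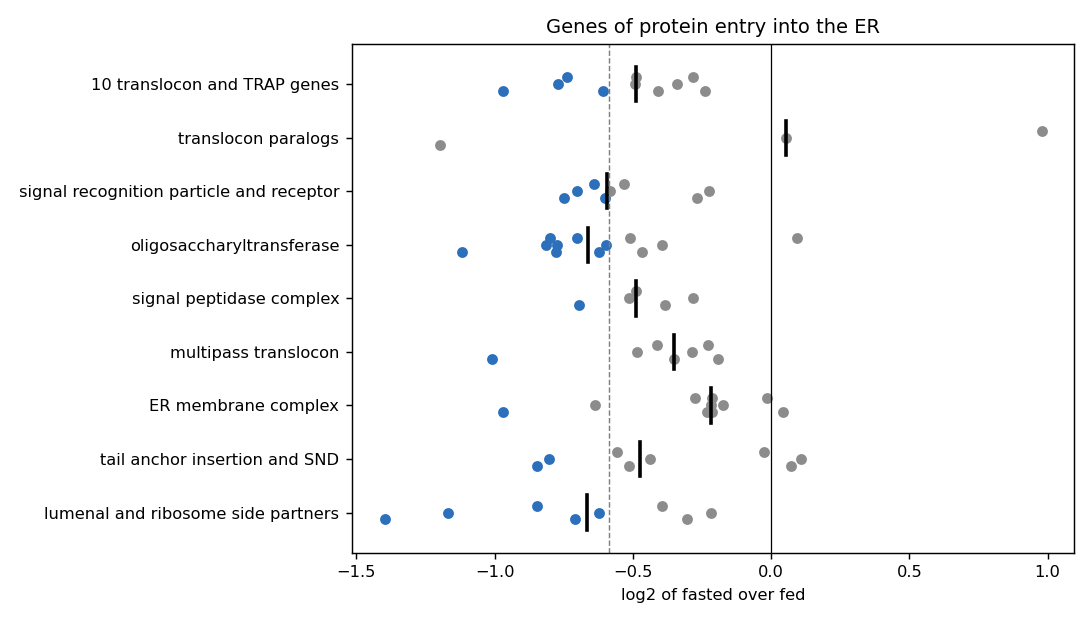
Log2 ratio of fasted to fed intensity of the 10 translocon and TRAP genes and for 8 sublists of genes of protein entry into the ER, 1 point per gene, blue where lower at both thresholds; bars are medians and the dashed line is 1.5-fold. Medians range from -0.67 for the lumenal and ribosome side partners to 0.06 for the 3 paralogs.

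The paralogs of the channel and of TRAM were dim. Sec61a2 measured 55.7, 54.3 and 59.9 in fed and 10.5, 27.9 and 51.3 in fasted isolates, at a log2 change of -1.20 with a wide interval (-2.56 to 0.16), and did not pass. Tram2 measured 16.6, 26.7 and 20.5 in fed and 92.3, 34.3 and 22.0 in fasted isolates. The high mean of Tram2 after fasting came from fasted array 1, the groups overlapped, and the log2 change of 0.98 did not pass (adjusted p = 0.422 from limma). Tram1l1 measured 9.78 to 15.5 in fed and 10.4 to 16.8 in fasted isolates.

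Outside these genes, the 5 whose log2 profile over the 6 arrays was most like the mean profile of the 10 were Ptprn, Ufm1, Slc38a10, Aldh7a1 and Ilk, with Pearson's r of 0.997 to 0.999 over 6 arrays. Of the 9130 genes ranked, 1132 (12.4%) had r over 0.9, and these values are a description over arrays that the genes share. Ufm1, a small modifier that is attached to ribosomes at the ER, measured 1043, 918 and 1018 in fed and 501, 574 and 621 in fasted isolates, and Ptprn, a membrane protein of the insulin granule, 1528, 1172 and 1518 in fed and 450.5, 548 and 681 in fasted isolates. In both, fed replicate 2 was the lowest fed and fasted replicate 1 the lowest fasted array. This order follows from their choice by likeness to the mean profile of the 10 genes on the same arrays, and adds no evidence.

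Upstream sequence was matched for 8 of the 10 genes in RefSeq (rat, GRCr8). Sec61a1 and Tram1 were not matched. Windows of 300 bases, from 250 before to 50 after the start of the gene, were searched on both strands for letters known from ER stress and cAMP response elements. The full ER stress response element (ERSE, CCAAT and CCACG with 9 bases between them), ERSE-II (ATTGG and CCACG with 1 base between them), the unfolded protein response element (TGACGTGG) and the cAMP response element (TGACGTCA) were found in 0 of the 8 windows. Over all 33469 promoters, 0.0657%, 0.0508%, 0.595% and 1.83% held them, in that order. The second part of ERSE alone, CCACG, was in 3 of the 8 (Ssr1, Ssr3 and Sec63) and in 31.6% of all promoters, and the first part, CCAAT, in 2 (Ssr3 and Sec61g) and in 37.5% of all. CCACG and CCAAT are contained in the longer ERSE. The 250 bases before the start are given for the 3 matched genes that fell at both thresholds and for Ssr3, which alone held both parts, in lower case with CCACG and CCAAT in capitals.
Sec61g (chr14:95119459-95119708, minus strand): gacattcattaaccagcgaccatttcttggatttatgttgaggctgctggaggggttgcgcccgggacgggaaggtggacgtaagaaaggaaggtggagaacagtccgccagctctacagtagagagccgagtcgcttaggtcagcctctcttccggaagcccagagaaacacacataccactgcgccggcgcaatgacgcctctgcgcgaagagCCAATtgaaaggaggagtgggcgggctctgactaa
Ssr2 (chr2:176345867-176346116, plus strand): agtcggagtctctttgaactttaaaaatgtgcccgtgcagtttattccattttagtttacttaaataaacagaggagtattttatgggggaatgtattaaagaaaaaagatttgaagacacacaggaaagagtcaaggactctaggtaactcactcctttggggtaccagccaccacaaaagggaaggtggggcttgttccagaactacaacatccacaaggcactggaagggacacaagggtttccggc
Ssr4 (chrX:156675408-156675657, plus strand): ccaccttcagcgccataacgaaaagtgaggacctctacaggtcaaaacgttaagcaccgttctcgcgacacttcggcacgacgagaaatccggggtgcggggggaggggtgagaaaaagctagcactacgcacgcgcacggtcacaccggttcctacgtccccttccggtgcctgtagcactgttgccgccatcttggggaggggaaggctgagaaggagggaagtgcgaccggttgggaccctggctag
Ssr3 (chr2:151935163-151935412, minus strand): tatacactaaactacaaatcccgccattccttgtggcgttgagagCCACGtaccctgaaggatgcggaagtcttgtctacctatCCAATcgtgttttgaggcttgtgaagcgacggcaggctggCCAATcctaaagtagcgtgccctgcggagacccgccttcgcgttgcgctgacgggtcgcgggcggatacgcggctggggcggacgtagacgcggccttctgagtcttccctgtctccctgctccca
In Ssr3, CCACG began at -205 and CCAAT at -166 and -126 relative to the start, all on the strand of the gene and not in the spacing of ERSE, and in Sec61g CCAAT began at -35. Ssr2 and Ssr4 held neither in this window. The letters are a description of the sequence, and no binding was measured.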

How the data were processed

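Total RNA of FACS-purified beta cells from fed and 24 h fasted rats (3 isolates each, 5 rats per pool) was hybridized on Affymetrix rat arrays after Trizol extraction of all isolates together. The deposited intensity values are linear and were computed by the authors in dChip, whose probe-set model was fitted once every array had been brought to the one of middle brightness and mismatch hybridization subtracted. No dChip version is given in the sources used here. The isolates are described as independent.

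Without 57 control probe sets and with a floor at the 10th percentile (3.27), log2 values entered limma 3.58.1 under R 4.3.3. Its moderated two-sided test (lmFit, then eBayes with a trend on intensity) compared 2 groups with no block and was adjusted by Benjamini-Hochberg over 31042 probe sets. A floor understates the change of dim probe sets. The number of arrays limits the precision. Genes were named from the platform annotation where a probe set had 1 symbol (20826 probe sets, 14217 genes; 436 had several). The fit was tested on simulated data, and matplotlib 3.10.9 (Python 3.11.15) drew the figures.

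The members and gene lists were chosen with earlier results of these data known. Counts and medians over lists are descriptions, beside those of all probe sets and of the 1514 genes whose brightest probe set was at least as bright as that of Sec63. Named were all 10 members with every probe set, of each pathway sublist the 2 genes with the largest absolute moderated t and any further gene past both thresholds, the paralogs, and the 5 genes whose profile was most like that of the members. Within-array ratios, and marker sums without markers of a mean over 5000, were added after the values had been seen, and so were BiP and Tusc3, named outside this rule. Replicates with the same number in both groups did not deviate together (correlation of deviations from the group means -0.05 to 0.01), so no pairing was used. Alternatives changed the scaling (quantile, or 75th percentile), the floor (25th percentile, or a pseudocount), the filter on dim probe sets, the test (linear means with unequal variances), the variance model (no trend, robust, array weights) and the probe sets of a gene (their mean), added the replicate number as block, or left out each array.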

Additional observations from a re-analysis of the deposited data

How the results depend on the processing

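The 10 genes kept a negative log2 change under all 17 alternatives, except Sec63 after scaling to the 75th percentile (0.00373). That scaling left 1 gene lower at both thresholds and 4 at an unadjusted p under 0.05 from limma, against 8.06% of the bright genes at that p. It left 5 with separate groups, and how many of all probe sets had separate groups under it was not counted. Quantile normalization left 3 lower at both thresholds. Of all 31042 probe sets, 1326 and 1495 were lower at both thresholds under these settings. The median log2 change was -0.36 with quantile normalization and -0.25 with scaling to the 75th percentile. It lay between -0.55 and -0.43 when an array was left out, with 3 to 4 genes lower at both thresholds. Of all probe sets, 1448 to 5562 were then lower at both thresholds. At an unadjusted p under 0.05 in limma, 6 to 9 genes were lower, and all probe sets were not counted at this p. Of the pathway genes 11 were lower with quantile normalization and 7 with scaling to the 75th percentile.

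Over all probe sets, 2616 were lower and 737 higher at both thresholds, and the counts moved with the setting. Quantile normalization gave 1495 and 1263, and scaling to the 75th percentile 1326 and 1426. The counts were 1625 and 269 with linear means and unequal variances, and 6956 and 2469 with array weights. The higher count was 419 with a floor at the 25th percentile and 379 with dim probe sets left out. Leaving out an array gave 1448 (without fed replicate 1) to 5562 (without fasted replicate 3) lower and 472 (without fed replicate 3) to 1536 (without fasted replicate 3) higher, and 1690 and 1706 lower without fasted replicates 1 and 2. At an adjusted p under 0.05 in limma there were 0 probe sets as described and 1 with a floor at the 25th percentile, 83 with a pseudocount, 88 with robust variance, 124 with dim probe sets left out and 9973 with array weights. With a pseudocount, with robust variance or with dim probe sets left out, 4 of the 10 genes had an adjusted p under 0.05 (smallest 0.0278, 0.0239 and 0.0258), and 8 had one with array weights (smallest 0.00657). The estimate of the array weights did not converge and gave fasted replicate 2 a weight of 11.9 against 0.21 to 1.26 for the other arrays.

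With the replicate number as a block the median log2 change was -0.49 and 4 genes were lower at both thresholds. Of all 31042 probe sets, 2046 were lower at both thresholds with the block and 2616 without it. At an unadjusted p under 0.05 in limma, 7 genes in place of 9 were lower, Sec62 and Ssr1 having missed it. All probe sets were not counted at this p with the block. The same-numbered arrays did not deviate together. The cause of the changes between settings was not tested.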
